A study of Canis lupus familiaris with 28 samples.

Results

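A set of 53 transcripts, out of 29884 counted, was followed across 12 groups of dog TR-T10 cells. Its members were lower in confluent than in sub-confluent wild-type cells and had levels at confluence that were held close between wild-type cells and cells depleted of both p190 proteins. They were chosen from measured values. A level was the log2 of a group's mean CPM plus 1, where CPM is the transcript's count scaled to the library's total of counts assigned to transcripts. A member had to be lower by at least 0.8 at confluence in wild-type cells of experiment 1, which 546 transcripts were. Confluent double knockdown cells had to lie within 0.5 of wild type in experiment 1, which left 122, and again in experiment 2, which left 73. The confluent p190A and p190B knockdowns had to lie within 0.7 of each other, which left 61, and the confluent libraries labelled YAP5SA within 0.8 of wild type, which left 53. The member nearest the first threshold had a contact difference of -0.802, and the nearest transcript outside it one of -0.795. For the later steps the nearest values inside and outside were 0.495 and 0.5055, 0.494 and 0.5055, 0.694 and 0.843, and 0.754 and 0.833.

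Many cells that touch their neighbours slow their division, a behaviour called contact inhibition. The Hippo kinases LATS1 and LATS2 phosphorylate the coactivator YAP in dense cultures, which keeps it from working with the TEAD transcription factors. The p190 proteins p190A (ARHGAP35) and p190B (ARHGAP5) are GTPase-activating proteins. The series asked, per its title, how p190 bears on contact inhibition and on transcription by YAP1.

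TR-T10 is a dog cell line, used here with shRNAs against p190A and p190B that doxycycline induces. Experiment 1 had 2 libraries in each of 8 groups: wild-type cells, cells with a p190A shRNA, cells with a p190B shRNA and cells with both, each confluent and sub-confluent. In experiment 2 all cells were confluent: wild type, both shRNAs, and both shRNAs plus YAP5SA+S94A had 3 libraries each. Another group, labelled YAP5SA, gave 2 distinct libraries, because 2 of its 3 files held identical values, which were counted as 1 sample. YAP5SA is a YAP whose LATS target serines were changed to alanine, and S94A adds a change that weakens TEAD binding. One label gives that last group YAP5SA alone and another adds both shRNAs, so it is called by its label. The protocol gives 4 µg/ml doxycycline for 3 days and then 3 to 5 days after replating, and does not say whether wild-type cells received it. The p190A line was selected in hygromycin and the p190B line in puromycin after retroviral transduction. The double line was made from p190B cells by adding the p190A shRNA, so the lines differ in selection as well as in shRNA. The labels do not name separate cultures for the replicates, and the p-values here reflect library-to-library spread that may be technical.

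Libraries held 10706716 to 17215544 transcript counts, so 1 count was worth 0.0581 to 0.0934 CPM. The files give Ensembl transcript identifiers without gene names, and 0 of them matched the reference table of 43286 dog genes. The genes targeted by the shRNAs, cell type markers and gene lists were therefore not read here, and 4 members are given by identifier. The others are described by their read counts. CPM is not divided by transcript length, so it ranks members by reads and not by level. All 53 members passed the filter on low counts in experiment 1 and 47 did in experiment 2. In experiment 1, 47, 41 and 43 members passed a filter on the libraries of the p190A, p190B and double knockdown contact comparisons alone, and the rest passed through other groups. The replicates of sub-confluent p190A knockdown cells stood apart: 48 of 53 members were higher in replicate 2 than in replicate 1, with a median difference of 0.50, where 47.5% of all tested transcripts were higher. In the other sub-confluent groups 33 (wild type), 40 (p190B) and 34 (double knockdown) members were higher in replicate 2.

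Members spanned a wide range of read counts. Their mean over 27 libraries ran from 0.248 to 3748 CPM with a median of 20.0 CPM, where all tested transcripts had a median of 23.7 CPM. There were 10 members under 1 CPM, 13 from 1 to 10, 16 from 10 to 100 and 14 over 100. The member with the most reads supplied 52.3% of all member counts, so sums over the set mostly give that transcript and are not used. The members were highest in sub-confluent wild-type cells. There the median member lay 0.60 and 0.73 above its own mean over all libraries (log2 of CPM plus 1) in replicates 1 and 2. In confluent wild-type cells it lay at -0.23 and -0.33. The sub-confluent knockdown libraries lay between these, at -0.17 and 0.44 for p190A, -0.16 and 0.18 for p190B, and 0.11 and 0.09 for the double knockdown. The lowest medians were in the confluent single knockdowns, -0.46 and -0.39 for p190A and -0.55 and -0.59 for p190B. The confluent double knockdown lay at -0.24 and -0.29. All 11 libraries of experiment 2 had medians between -0.01 and 0.14, those with YAP5SA+S94A at 0.13, 0.08 and 0.14.

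The contact change in wild-type cells chose the members and is given as a description. Of 53 members 50 were called lower and 0 higher, where 15.0% and 14.3% of tested transcripts were, and the median log2 fold change was -1.32. Confluent libraries lay below sub-confluent ones in 52 members and above them in 0, against 30.2% and 39.7% of tested transcripts.

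**Figure D1:**
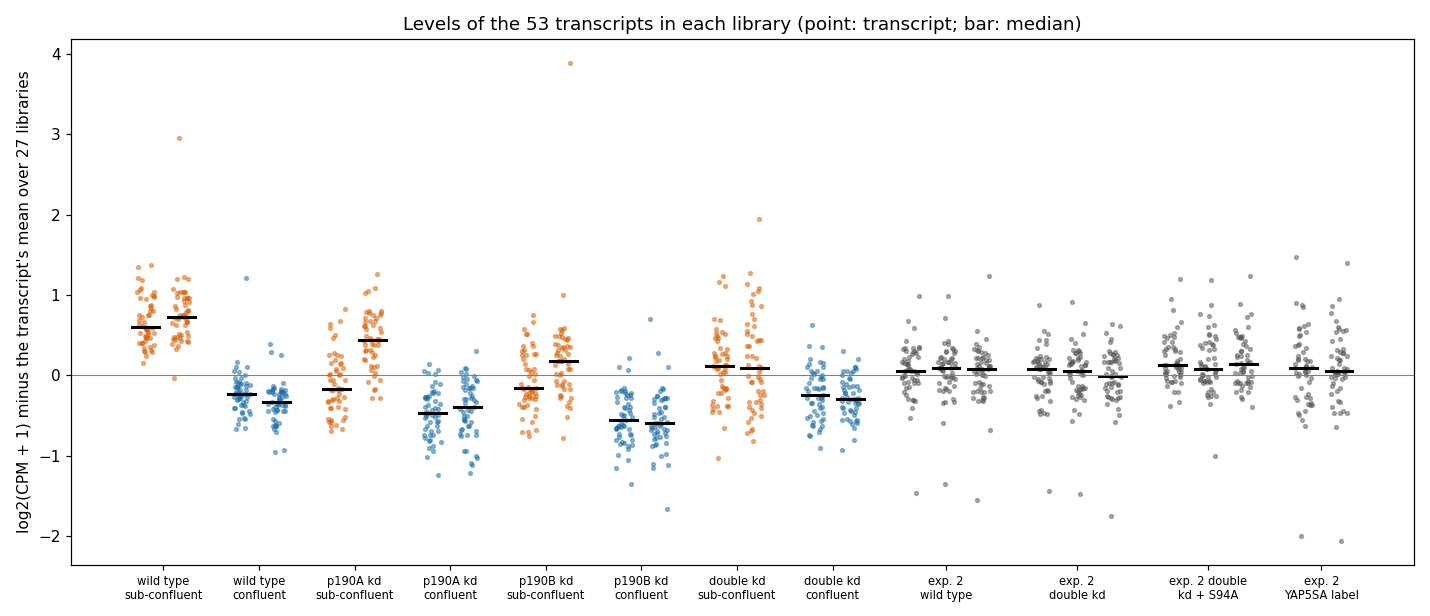
Level of each of the 53 transcripts in 27 libraries, as log2(CPM + 1) minus the transcript's own mean over all libraries (y axis); libraries are grouped on the x axis by cell type and density, kd means knockdown, points are transcripts and bars are medians. Sub-confluent wild-type libraries have medians of 0.60 and 0.73 and confluent ones of -0.23 and -0.33, and the 2 sub-confluent p190A libraries have medians of -0.17 and 0.44.

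The sub-confluent knockdown libraries entered no step of the choice, but the confluent ones did. Confluent double knockdown cells were held within 0.5 of confluent wild type, itself chosen to be low, and the confluent single knockdowns within 0.7 of each other. A drop at confluence in knockdown cells is therefore partly built in, most of all in the double knockdown, and the counts below describe the set and are not independent support. In p190A knockdown cells 23 of 53 members were lower at confluence and 0 higher, where 6.93% of the 12845 tested transcripts were called lower and 3.87% higher (edgeR quasi-likelihood, adjusted p under 0.05). The median log2 fold change of the members was -0.92, against -0.01 over all tested transcripts. At unadjusted p under 0.05, 36 members were lower and 0 higher, where 3881 of all tested transcripts passed in either direction. In 42 members both confluent p190A libraries lay below both sub-confluent ones, which held for 24.2% of tested transcripts, and in 0 members above them, against 31.2%. With the 2 members that had a group at 0 counts set to a bound of 3 counts over the group, the median was -0.92. In p190B knockdown cells 22 of 53 members were lower and 0 higher, where 5.92% of tested transcripts were called lower and 4.49% higher, and the median was -0.79 against 0.02 over all. At unadjusted p under 0.05, 39 members were lower and 0 higher, where 3577 of all tested transcripts passed in either direction. The groups did not overlap in 47 members, with confluent cells lower, against 27.5% of tested transcripts, and in 0 with confluent cells higher, against 32.5%. With the 3 members that had a group at 0 set to the same bound the median was -0.80. Among the 43 members with at least 1 CPM on average, 20 were called lower in p190A and 19 in p190B cells, with medians of -0.87 and -0.74. Of all 53 members, 15 were called in both single knockdowns, 8 in p190A cells only, 7 in p190B cells only and 23 in neither. The overlap over all tested transcripts was not taken. The rule held the confluent single knockdowns within 0.7 of each other, so the sharing is partly built in.

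Both counts depended on single libraries. Leaving out 1 library of a compared group leaves a single library there, and calls over all tested transcripts changed too, so medians are given. The p190A median of -0.92 was -0.93 and -0.87 without confluent p190A replicates 1 and 2. It was -1.24 and -0.44 without sub-confluent p190A replicates 1 and 2. The p190B median of -0.79 was -0.93 and -0.78 without confluent p190B replicates 1 and 2. It was -0.95 and -0.63 without sub-confluent p190B replicates 1 and 2. In a model of the compared groups alone the p190A count of 23 was 2, where 149 of 12052 tested transcripts were called. With a replicate block within density the counts of 23 and 22 became 35 and 34. That fit called 3458 and 2920 tested transcripts, against 1387 and 1337 in the main fit. That block takes out what same-numbered libraries of 1 density share, which is part of the error of a comparison between densities.

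In double knockdown cells 1 of 53 members was called lower at confluence and 0 higher, where 0.895% of tested transcripts were called lower and 0.911% higher. The share of members called, 1.89%, was thus close to that of all transcripts. The number called depended on the fit. The main fit called 232 of 12845 tested transcripts in either direction. With a replicate block within density 19 members were called (18 lower and 1 higher), where 1309 of 12845 tested transcripts were. Without the filter on low counts 22 were called (21 lower and 1 higher), where 1146 of 19256 tested transcripts were. With DESeq2 it was 4, all lower, where 514 transcripts were called. The single call therefore does not show that the members lacked a contact response in these cells. The median log2 fold change was -0.55 against 0.01 over all, and it was -0.51 with the 1 member that had a group at 0 counts set to that bound. Among the 43 members with at least 1 CPM on average it was -0.45. At unadjusted p under 0.05, 22 members were lower and 2 higher, where 2301 of all tested transcripts passed in either direction. Both confluent libraries lay below both sub-confluent ones in 33 members, against 23.3% of tested transcripts, and above them in 3, against 25.8%. The called member had 7.52 and 5.63 CPM in sub-confluent double knockdown cells and 1.97 and 1.95 CPM at confluence, and the log2 fold change was -1.75 (edgeR adjusted p = 0.0102). The count of members called was 2 without either confluent p190A replicate, where 124 tested transcripts were called. It was 7 without either sub-confluent p190A replicate, where 742 were. The median over the members was -0.66 and -0.53 without confluent double knockdown replicates 1 and 2. It was -0.53 and -0.36 without sub-confluent double knockdown replicates 1 and 2.

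**Figure D2:**
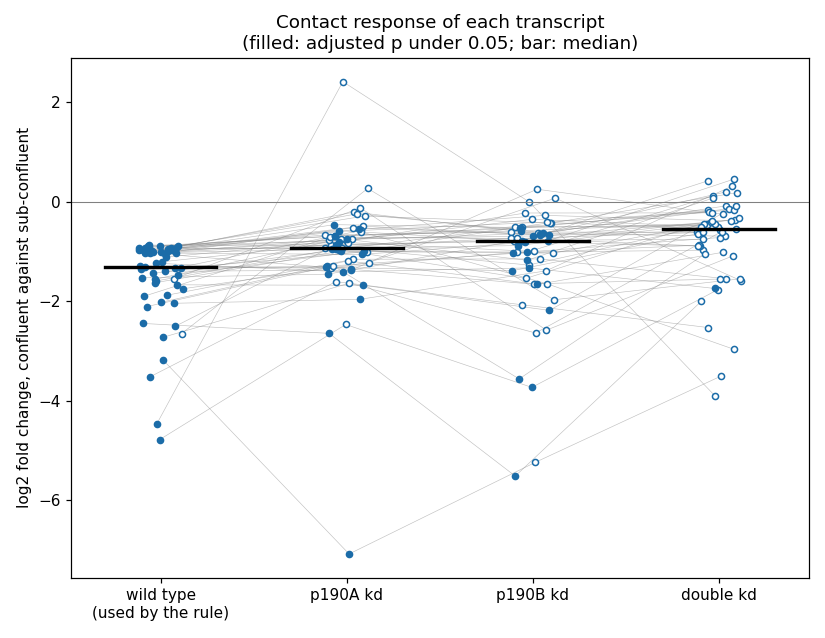
Fitted log2 fold change of each transcript between confluent and sub-confluent cells (y axis) in 4 cell types (x axis, kd means knockdown); filled points passed adjusted p under 0.05, bars are medians and lines join a transcript, and values of -3 or less belong to members under 1 CPM, whose fitted size is uncertain. The medians are -0.92 in p190A, -0.79 in p190B and -0.55 in double knockdown cells; the wild-type column, with a median of -1.32, was used to choose the members.

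The response of the double knockdown was compared with those of the single knockdowns as an interaction. Its confluent libraries were tied to wild type by the rule, while those of the single knockdowns could lie further below it, so a positive difference is partly set by the choice. The response was less negative than in p190A cells in 43 of 53 members, where 53.7% of tested transcripts had a positive difference, and less negative than in p190B cells in 38, where 48.5% did. Among the 43 members with at least 1 CPM on average, the median differences were 0.34 and 0.24, against 0.03 and -0.01 over all tested transcripts. Against p190A cells 2 members (3.77%) passed the test, both with a positive difference, where 0.428% of tested transcripts did, and against p190B cells 1 (1.89%) did, where 0.786% did. In both tests 0 members passed with a negative difference, where 0.0234% and 0.132% of tested transcripts did, and 0 did at unadjusted p under 0.05, against 11 and 10 positive ones. Of all tested transcripts 1317 and 1548 passed at unadjusted p under 0.05 in either direction. With a replicate block within density the count was 3 against p190A and 3 against p190B. That fit called 338 and 453 tested transcripts, against 58 and 118 in the main fit. Against p190A the count was 1 without any wild-type or sub-confluent p190B library of experiment 1, where 34 to 45 tested transcripts were called. The median over all 53 members was 0.34, and it was 0.68 and -0.05 without sub-confluent p190A replicates 1 and 2. Against p190B the count was 2 without either sub-confluent p190A replicate, where 236 tested transcripts were called. The median of 0.29 was 0.46 without confluent p190B replicate 1, and 0.47 and 0.11 without sub-confluent p190B replicates 1 and 2.

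Against wild-type cells the members can only be described, since wild-type libraries chose them for high sub-confluent and low confluent values. On the scale of the rule, sub-confluent levels were below sub-confluent wild type in 52 members with p190A knockdown, 51 with p190B knockdown and 46 with both, with median differences of -0.42, -0.61 and -0.66. The medians over all tested transcripts were 0.02, -0.01 and 0.04. At confluence the medians against wild type were -0.11 with p190A knockdown, -0.30 with p190B knockdown and -0.01 with both, the last held near 0 by the rule. The contact difference on this scale had a median of -0.96 in wild type, -0.69 in p190A, -0.61 in p190B and -0.39 in double knockdown cells. The set was matched between wild-type and double knockdown cells at confluence by its rule and lay lower in sub-confluent knockdown than in sub-confluent wild-type libraries, so it is described here by its rule and not as a response independent of p190. In these bulk samples, fewer cells that express a transcript and less of it per cell cannot be told apart.

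Among sub-confluent knockdown cells, members differed in both directions. Between double and p190A knockdown cells 9 members were lower and 3 higher with both shRNAs, where 11.8% and 8.65% of tested transcripts were called lower and higher, with a median of -0.17. The groups did not overlap in 18 members with the double knockdown lower and 11 with it higher, against 23.3% and 29.6% of tested transcripts. With a replicate block within density 13 were lower and 8 higher, where 4062 of 12845 tested transcripts were called, against 2621 without it. The count of 12 was 0 in a model of the compared groups alone, where 217 of 12096 tested transcripts were called. The median was -0.49 and 0.28 without sub-confluent p190A replicates 1 and 2, and -0.36 without sub-confluent double knockdown replicate 2. Between double and p190B knockdown cells 7 members were lower and 8 higher, where 16.3% and 15.3% of tested transcripts were, with a median of -0.01. The groups did not overlap in 13 and 17 members, lower and higher, against 30.2% and 36.9%. The block within density gave 7 lower and 14 higher, where 5356 tested transcripts were called, against 4058 without it. Leaving out 1 library of these groups moved the median between -0.12 and 0.21. Between p190A and p190B cells 1 member was lower and 6 higher with the p190A shRNA, where 10.3% and 11.0% of tested transcripts were, with a median of 0.18. The groups did not overlap in 8 and 11 members, lower and higher, against 27.1% and 28.9%. This count of 7 was 12 with the block within density, where 3924 tested transcripts were called, against 2735 without it. In a model of the compared groups alone it was 2, where 872 of 12037 tested transcripts were called. The median was 0.49 and -0.23 without sub-confluent p190A replicates 1 and 2, and 0.00 and 0.38 without sub-confluent p190B replicates 1 and 2. In the fit without a block, 17.0% of members were called lower with both shRNAs rather than p190A, above the 11.8% of all tested transcripts. No member was called in a model of the compared groups alone, and the median changed sign without sub-confluent p190A replicate 2. The other shares called without a block ran from 1.89% to 15.1%, near or below those of all tested transcripts. With the block, shares of all tested transcripts by direction were not taken.

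The member with the most reads had 4222 and 4786 CPM in sub-confluent and 2564 and 2313 CPM in confluent wild-type cells. With the p190B shRNA it stood at 4277 and 4295 CPM sub-confluent and at 2574 and 3009 CPM confluent, and it fell by 0.65 on the log2 scale (SE 0.14, edgeR adjusted p = 0.0150), a call lost without confluent p190B replicate 2. With the p190A shRNA it had 3441 and 4114 CPM sub-confluent and 3279 and 3485 CPM confluent, values that overlapped. With both shRNAs it had 2763 and 2029 CPM sub-confluent and 2145 and 2409 CPM confluent. These double knockdown groups overlapped, and both were near the confluent wild-type values. Sub-confluent double knockdown cells were lower than sub-confluent p190B cells by a log2 fold change of -0.88 (SE 0.14, edgeR adjusted p = 5.6e-04). In experiment 2 it had 4127, 4074 and 4003 CPM in double knockdown cells and rose to 6307, 6115 and 6089 CPM with YAP5SA+S94A (log2 fold change 0.62, SE 0.03, edgeR adjusted p = 2.1e-25), with no overlap. The member with the second most reads differed widely between sub-confluent replicates. Its sub-confluent values in replicates 1 and 2 were 330 and 606 CPM in wild type, 225 and 634 CPM with the p190A shRNA, 210 and 448 CPM with the p190B shRNA and 318 and 656 CPM with both. Replicate 2 was the higher in all 4 cell types, and in each of them both confluent libraries lay below both sub-confluent ones. Its contact change did not pass the test in any of the 3 kinds of knockdown cells (edgeR adjusted p = 0.0729, 0.1658 and 0.2804 for p190A, p190B and both).

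Members with a mean log2 CPM of at least 3 that were called in at least 1 kind of knockdown cells were ranked by the smallest of their 3 drops. The first, transcript ENSCAFT00000014543, with a smallest drop of -1.01, had 43.8 and 51.7 CPM in sub-confluent and 25.6 and 22.5 CPM in confluent wild-type cells. With the p190A shRNA it had 15.7 and 33.4 CPM sub-confluent and 9.88 and 10.0 CPM confluent, and it fell by 1.36 on the log2 scale (SE 0.29, edgeR adjusted p = 0.0137). With the p190B shRNA it had 20.1 and 30.1 CPM sub-confluent and 9.0 and 7.13 CPM confluent, and it fell by 1.66 (SE 0.30, edgeR adjusted p = 5.3e-03). With both it had 34.4 and 34.9 CPM sub-confluent and 17.9 and 16.6 CPM confluent, with a log2 fold change of -1.01 (SE 0.27, edgeR adjusted p = 0.0797). Its confluent values in the single knockdowns lay below those of the other 2 cell types. In experiment 2 it had 25.2, 28.7 and 29.0 CPM in wild type, 35.6, 35.7 and 34.1 CPM with both shRNAs and 34.3, 35.6 and 33.5 CPM with YAP5SA+S94A added, and the last 2 groups overlapped. The p190A call was lost in a model of the compared groups alone (edgeR adjusted p = 0.1020), without either confluent p190A replicate (edgeR adjusted p = 0.1124 and 0.0894) and without sub-confluent p190A replicate 2, where the log2 fold change was -0.70 (edgeR adjusted p = 0.2045). The p190B call was lost without confluent p190B replicate 2 (edgeR adjusted p = 0.0762) and sub-confluent p190B replicate 2 (edgeR adjusted p = 0.0698).

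The next, transcript ENSCAFT00000003490, with a smallest drop of -0.87, had 376 and 523 CPM in sub-confluent and 183 and 183 CPM in confluent wild-type cells. With the p190A shRNA it had 227 and 396 CPM sub-confluent and 127 and 135 CPM confluent, and it fell by 1.30 on the log2 scale (SE 0.25, edgeR adjusted p = 8.1e-03). With the p190B shRNA it had 237 and 335 CPM sub-confluent and 145 and 138 CPM confluent, and it fell by 1.04 (SE 0.24, edgeR adjusted p = 0.0188). With both it had 325 and 413 CPM sub-confluent and 223 and 183 CPM confluent, with a log2 fold change of -0.87 (SE 0.24, edgeR adjusted p = 0.0866). Confluent libraries lay below sub-confluent ones in all 4 cell types. The p190A call was lost in a model of the compared groups alone (edgeR adjusted p = 0.0649), without either confluent p190A replicate (edgeR adjusted p = 0.0909 and 0.0633) and without sub-confluent p190A replicate 2, where the log2 fold change was -0.83 (edgeR adjusted p = 0.1409). In experiment 2 it had 224, 235 and 230 CPM in wild type, 221, 195 and 188 CPM with both shRNAs and 197, 187 and 184 CPM with YAP5SA+S94A added, so the last 2 groups overlapped. The p190B call of experiment 1 was lost without either confluent p190B replicate (edgeR adjusted p = 0.0598 and 0.1351) and without sub-confluent p190B replicate 2 (edgeR adjusted p = 0.2088). The double knockdown change of both transcripts was called with a replicate block within density (edgeR adjusted p = 6.4e-03 for ENSCAFT00000014543 and 5.8e-04 for ENSCAFT00000003490), without the filter on low counts (8.4e-07 and 1.2e-08), with DESeq2 (0.0152 and 0.0119) and without either sub-confluent p190A replicate. For ENSCAFT00000014543 it was also called in a model of the compared groups alone (edgeR adjusted p = 0.0315).

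The YAP5SA+S94A libraries of experiment 2 entered no step of the choice, but the double knockdown and wild-type libraries compared with them did. The rule held double knockdown levels close to wild type in that experiment, so both comparisons below are partly tied to the choice. Their counts describe the set and are not independent support. Against confluent double knockdown cells, 19 of the 47 members tested were higher with YAP5SA+S94A and 3 lower, where 25.9% and 25.4% of the 13061 tested transcripts were called higher and lower (edgeR quasi-likelihood, adjusted p under 0.05). The median log2 fold change was 0.13, against -0.01 over all, and it was 0.08 without YAP5SA+S94A replicate 2. The 3 YAP5SA+S94A libraries lay above all 3 double knockdown libraries in 20 members, against 26.6% of tested transcripts, and below them in 5, against 30.6%. Of the 19 called higher, 1 averaged under 1 CPM and passed the filter on low counts through the YAP5SA+S94A libraries, so its call is not support. Among the 43 members with at least 1 CPM on average, 18 were called higher and 3 lower. Against confluent wild type of the same experiment 22 members were higher and 8 lower, where 29.1% and 27.2% of tested transcripts were, with a median of 0.21. By read count, 8 of the 14 members over 100 CPM and 8 of the 16 from 10 to 100 CPM were called higher than in the double knockdown, with 2 and 0 lower. Of the 13 from 1 to 10 CPM, 2 were called higher and 1 lower. Median standard errors were 0.03 over 100 CPM and 0.19 from 1 to 10 CPM, so small changes passed more easily with more reads. The shares of all tested transcripts called in each class were not taken, so these counts only describe the members. The changes were mostly small, with a median of 0.11 over the members above 100 CPM.

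**Figure D3:**
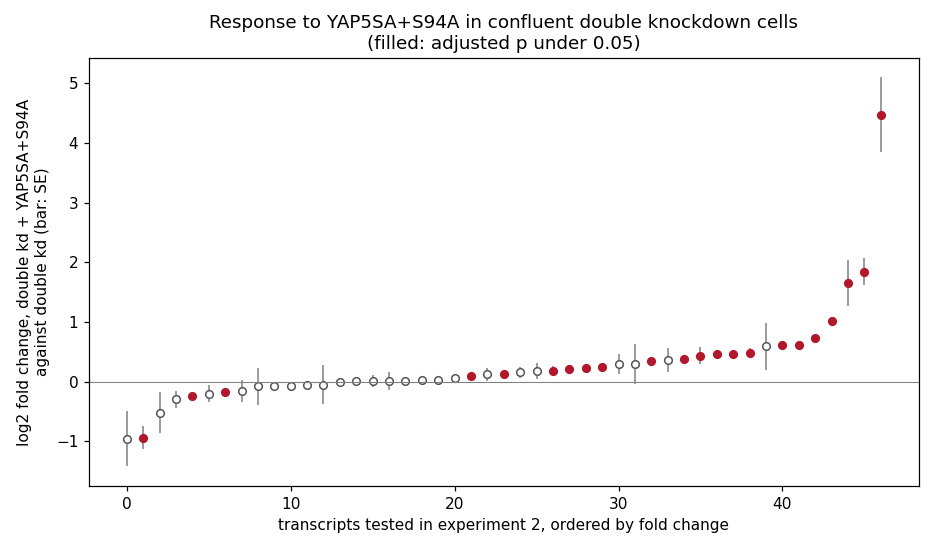
Log2 fold change between double knockdown cells with and without YAP5SA+S94A (y axis, bars are standard errors) for the 47 transcripts tested in experiment 2, in increasing order (x axis); filled points passed adjusted p under 0.05. 19 transcripts are called higher and 3 lower, and the highest value, 4.47, belongs to a member with 0, 0 and 0.125 CPM in the double knockdown libraries and 0.775, 1.32 and 1.30 CPM with YAP5SA+S94A. That member passed the filter on low counts through the YAP5SA+S94A libraries, so its call is not support.

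Of the members with a mean log2 CPM of at least 3, transcript ENSCAFT00000042173 had the highest fold change. It had 25.7, 24.9 and 20.6 CPM in double knockdown cells and 88.7, 35.1 and 100.2 CPM with YAP5SA+S94A, a log2 fold change of 1.65 (SE 0.38, edgeR adjusted p = 7.7e-03). It was also higher than wild type (log2 fold change 1.62, edgeR adjusted p = 7.9e-03). In models of the compared groups alone, the call against wild type was lost (edgeR adjusted p = 0.0502) and that against the double knockdown was at the threshold (edgeR adjusted p = 0.0498). Its replicates lay far apart in several groups. In sub-confluent cells it had 166 and 562 CPM in wild type, 47.7 and 97.1 CPM with the p190A shRNA, 64.0 and 1074 CPM with the p190B shRNA and 116 and 278 CPM with both, and in wild type the confluent value of 167 CPM in replicate 1 lay above the lower sub-confluent value. Its contact change in wild-type cells did not pass the test (log2 fold change -1.55, SE 1.02, edgeR adjusted p = 0.2747).

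Transcript ENSCAFT00000008769 came next, at 194, 201 and 193 CPM in double knockdown cells and 386, 387 and 393 CPM with YAP5SA+S94A. It rose by a log2 fold change of 1.01 (SE 0.03, edgeR adjusted p = 9.7e-35). Wild-type libraries of experiment 2 held 243, 238 and 249 CPM and the libraries labelled YAP5SA 308 and 309 CPM, so the 4 groups did not overlap. In experiment 1 sub-confluent cells held 338 and 481 CPM in wild type, 303 and 383 CPM with the p190A shRNA and 314 and 393 CPM with the p190B shRNA, but 242 and 257 CPM with both. Sub-confluent double knockdown cells were lower than either single knockdown, by log2 fold changes of -0.50 against p190A (edgeR adjusted p = 0.0409) and -0.54 against p190B (edgeR adjusted p = 0.0192). The call against p190A was lost in a model of the compared groups alone, where 0 members passed.

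**Figure D4:**
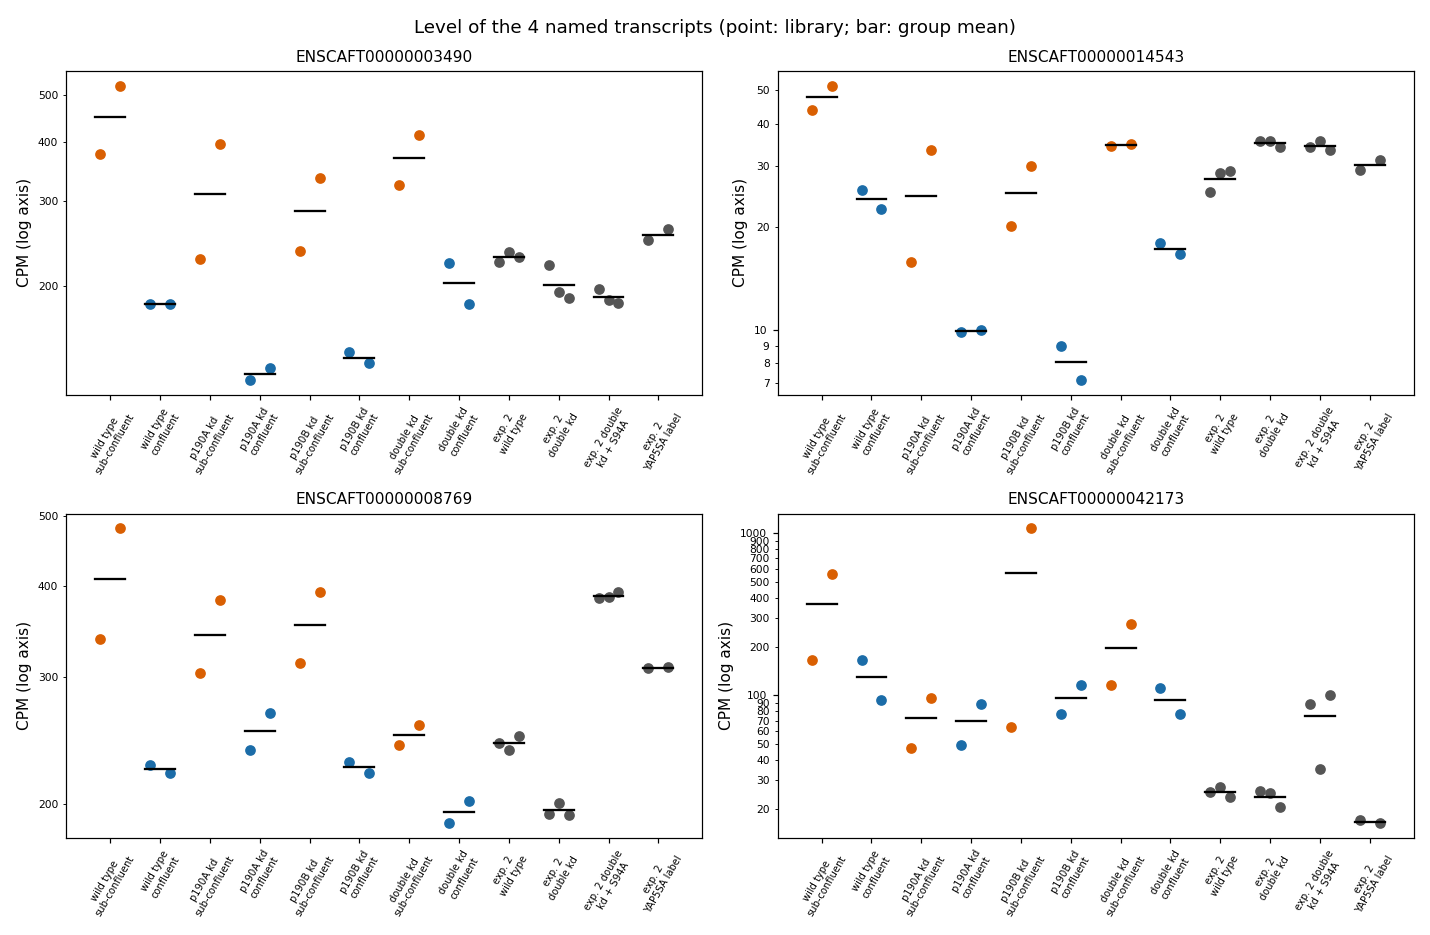
CPM on a log axis (y axis) of the 4 transcripts given by identifier in each of 12 groups (x axis, kd means knockdown; exp. 2 groups are confluent); points are libraries and bars are group means. The upper transcripts are lower at confluence in all 4 cell types of experiment 1, the lower left one reaches 386 to 393 CPM with YAP5SA+S94A, and the lower right one spans 64.0 to 1074 CPM within sub-confluent p190B knockdown cells.

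The confluent cells of experiment 2 gave higher values than those of experiment 1 for most members. Wild-type levels on the scale of the rule were higher in experiment 2 in 47 of 53 members, with a median difference of 0.32, against 0.06 over all tested transcripts. They were below sub-confluent wild type of experiment 1 in 51 members, with a median of -0.69, against 0.11 over all tested transcripts. The confluent wild-type libraries of experiment 1 were chosen to be low and the sub-confluent ones to be high, so both differences are partly set by the choice. Experiment and density cannot be told apart here because experiment 2 had no sub-confluent cells. Libraries labelled YAP5SA had a median difference of 0.04 from wild type, with a range of -0.62 to 0.75 that the rule limited.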

How the data were processed

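For each sample the authors deposited raw read counts by Ensembl dog transcript. The 5 summary rows of each table were left out. Per the submitters' processing notes, STAR 2.3.1n, HTSeq 0.6.0, DESeq2 1.4.5 and build CanFam3.1 were used, with no roles given. Per the labels' protocols, single-read TruSeq mRNA libraries were sequenced. Whether counting used strand is not given. Reads on overlapping transcripts went to an ambiguous row (20.3% to 23.1% of reads aligned to 1 place), so members that overlap other transcripts are counted from part of their reads.

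Members were found from CPM over transcript rows. Each experiment was fitted with edgeR 4.0.16 (R 4.3.3) over all transcripts, with filterByExpr, TMM scaling, group means and robust quasi-likelihood F-tests. The p-values were Benjamini-Hochberg adjusted over all tested transcripts. The fit was also run on simulated counts with independent libraries and 1 common spread. Those lack the correlation between same-numbered libraries given below, so that run cannot speak to error rates in these data. Standard errors come from the F statistic. Alternatives were RLE scaling, no filter, DESeq2 1.42.0, limma-voom 3.58.1, fits of only the groups compared, replicate blocks and leaving out each library. Members and lists were chosen with earlier results of these data known. Identifiers are printed for the 2 members with the largest common drop in knockdown cells and the 2 with the highest change with YAP5SA+S94A, among called members with mean log2 CPM of at least 3 (20 and 16 eligible). Within a density, the deviations of libraries with the same number correlated (Pearson's r over transcripts, 0.18 to 0.60 over 12 pairs). They did not across densities (-0.24 to 0.07) or in experiment 2 (-0.03 to 0.04), so the number was taken to pair samples within a density only. The main fit uses no pairing, and fits with a replicate block are given beside it.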

Additional observations from a re-analysis of the deposited data

Results flagged for a closer look

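The contact response of the double knockdown differed from that of the p190A knockdown in 2 members and from that of the p190B knockdown in 1 member, by the interaction test (edgeR adjusted p under 0.05). The rule tied the confluent double knockdown to wild type, so positive differences are partly set by the choice of members. The member that differed in both tests averaged 79.4 CPM. It had 135 and 103 CPM in sub-confluent and 64.4 and 69.8 CPM in confluent p190A cells, and 74.6 and 69.6 CPM in sub-confluent and 40.3 and 44.9 CPM in confluent p190B cells. In double knockdown cells the order was the opposite, with 67.5 and 72.7 CPM sub-confluent and 96.3 and 93.2 CPM confluent. The differences in log2 fold change were 1.30 and 1.21. The other member averaged 5.51 CPM, with 5.69 and 5.30 CPM sub-confluent and 2.45 and 2.99 CPM confluent in p190A cells, and 4.44 and 5.23 CPM sub-confluent and 7.15 and 6.30 CPM confluent in double knockdown cells, a difference of 1.52. In neither member did the double knockdown change itself pass the test.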

How the results depend on the processing

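Under the 4 alternatives to the rule, 77 transcripts were members with TMM-scaled CPM (49 shared with the 53), 62 with a pseudocount of 0.5 (42 shared), 50 with mean log2 values (50 shared) and 23 with a contact difference of at most -1. Leaving out single libraries gave 49 to 76. Without sub-confluent wild-type replicates 1 and 2 there were 76 (42 shared) and 49 (37 shared). Without confluent wild-type replicates 1 and 2 of experiment 1 there were 72 (47 shared) and 51 (41 shared). Each other library left out kept at least 48 of the 53. Without the filter on low counts, members called were 36 (p190A contact), 37 (p190B contact), 22 (double knockdown contact), 6 and 8 (interactions against p190A and p190B) and 14 (sub-confluent p190A against p190B). Over all 19256 transcripts 2595, 2317, 1146, 488, 554 and 3149 were called, in that order. In fits of only the groups compared, members called were 2 (p190A contact), 0 (interaction against p190A), 0 (sub-confluent double against p190A) and 2 (sub-confluent p190A against p190B). Over all tested transcripts 149, 0, 217 and 872 were called. DESeq2 gave 4 for the double knockdown contact response and 1 for the interaction against p190A, where 514 and 195 transcripts were called. A replicate block gave 2 for the double knockdown contact response, where 354 of 12845 transcripts were called. A replicate block within density gave 35, 34 and 19 for the p190A, p190B and double knockdown contact responses, and 3 and 3 for the interactions. It gave 21 for sub-confluent double against p190A and 12 for sub-confluent p190A against p190B. Over all 12845 tested transcripts it called 3458, 2920, 1309, 338, 453, 4062 and 3924, in that order. For contact responses it takes out what libraries of 1 density share. Leaving out each library of experiment 1 in turn gave 0 to 38, 0 to 27 and 0 to 7 members for the 3 contact responses, 0 to 7 and 0 to 2 for the interactions, and 5 to 16, 6 to 18 and 4 to 12 for the sub-confluent comparisons of double with p190A, double with p190B and p190A with p190B. In experiment 2 the counts of 22 and 30 ranged over 21 to 23 and 27 to 31. All other alternatives run kept the count within 1.5 times. In the fits that left a single library in a compared group, the numbers called over all tested transcripts changed as well. The causes were not tested. Leaving out libraries to recount the members, and libraries of groups not compared, was chosen after seeing the data. For the 10 members under 1 CPM, depth limits what could be seen.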

Other observations

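The member with the most reads and another averaging 249 CPM had similar changes in the contrasts given here, a likeness noticed after their values were seen. Their log2 fold changes were -0.21 and -0.24 for contact with the p190A shRNA, -0.65 and -0.62 with the p190B shRNA and -0.08 and -0.14 with both. With YAP5SA+S94A both rose, by 0.62 and 0.61 against the double knockdown and by 0.83 and 0.89 against wild type. A member averaging 1.17 CPM had 1.13, 1.05 and 0.811 CPM in the double knockdown and 3.52, 3.49 and 3.65 CPM with YAP5SA+S94A (log2 fold change 1.84, edgeR adjusted p = 4.3e-10). A member averaging 2.13 CPM had 3.87, 3.98 and 3.12 CPM in the double knockdown and fell with YAP5SA+S94A to 2.04, 1.91 and 1.62 CPM (log2 fold change -0.94, edgeR adjusted p = 4.0e-05).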
